A study of Homo sapiens with 92 samples.

Results

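The genes described here are 31 canonical targets of the transcription factor p53, taken by symbol from the files: CDKN1A, MDM2, SESN1, GADD45A, TP53INP1, BTG2, PLK2, PLK3, FAS, BBC3, PMAIP1, BAX, TNFRSF10B, ZMAT3, XPC, DDB2, FDXR, RRM2B, PHLDA3, AEN, SPATA18, CCNG1, PPM1D, TP53I3, POLH, TRIAP1, GDF15, EDA2R, ABHD4, TRIM22 and SERTAD1. All 31 were present in the files, among 48903 genes kept. They were followed in newly made RNA, measured by SLAM-seq, in which cells take up 4-thiouridine (4sU) and the labelled bases are later read as T-to-C conversions. The study as a whole held 92 libraries in 32 groups and asked what NIPBL, the factor that loads and drives the cohesin ring, does when transcription resumes after mitosis.

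The RPE-1 libraries came from 1 clone, NIPBL-D7, of the immortalised human line hTERT RPE-1, in which both arms carry mGreenLantern-P2A-FKBP12(F36V)-NIPBL. This tag lets the degrader dTAGV-1 remove the NIPBL protein, and DMSO is the vehicle. Cells were synchronised with thymidine at 2 mM, held in nocodazole at 20 ng/ml for 120 min, collected by shake-off in prometaphase and released. In the mitosis series dTAGV-1 or DMSO was present during the nocodazole step and after release. With a 15 min pulse of 4sU at 100 µM, DMSO had 3, 3, 4, 4 and 4 libraries at 0, 30, 60, 90 and 120 min, and dTAGV-1 had 4, 3, 4, 4 and 3. Both arms had 2 libraries at each of 4, 6 and 8 h, and 3 libraries at 120 min with 4sU for 120 min. In the release series the labels give the drug for the time after release only, with 3 libraries an arm at 30, 60, 90 and 120 min and 3 an arm with 120 min of 4sU. The remaining 8 libraries, 2 an arm, were cardiomyocytes and neurons made from the human pluripotent line WTC11, with dTAGV-1 or DMSO for 4 h and 4sU for 120 min. For these the titles and culture notes say WTC11 while the cell line field says hTERT RPE-1, with the same genotype, and the titles were followed. Nothing in the labels says whether replicates were separate cultures, so p-values measure the spread between these libraries, which may be technical.

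The p53 protein is held low by MDM2, a ubiquitin ligase that is itself a p53 target, and rises after DNA damage and other stress. It binds DNA as a tetramer at a pair of decameric half-sites. Its targets stop the cell cycle, repair DNA, promote apoptosis or feed back on p53, and RPE-1 is widely used as a line with functional p53. A prolonged or disturbed mitosis is known to lead to p53-dependent arrest of the daughter cells.

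RefSeq promoter windows (GRCh38.p14, 250 bases before to 50 after the annotated start) were found for 25 of the 31 genes. The p53 half-site consensus, which reads alike on both strands, occurred in 7 of these 25 genes (28.0%) and in 8.06% of the 27305 genes of the table. The 7 were ABHD4, AEN, DDB2, FAS, FDXR, PLK2 and SESN1. Windows are shown for PLK2, whose labelled RNA differed between the drug arms, for AEN and FAS, which rose after release, for DDB2, whose window held a pair of half-sites, and for CDKN1A, which had the largest change in DMSO at 90 and 120 min. Capitals mark half-sites, and the order is 5′ to 3′ on the gene's strand. A match is a description of these letters only.
PLK2 (chr5:58460037-58460336, minus strand, the half-site begins 132 bases before the start): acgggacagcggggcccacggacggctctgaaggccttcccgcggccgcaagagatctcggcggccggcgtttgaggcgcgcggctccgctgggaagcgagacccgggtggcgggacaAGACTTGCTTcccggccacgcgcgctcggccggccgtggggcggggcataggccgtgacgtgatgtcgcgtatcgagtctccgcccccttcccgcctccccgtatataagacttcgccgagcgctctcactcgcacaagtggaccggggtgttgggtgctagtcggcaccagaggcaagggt
AEN (chr15:88621090-88621389, plus strand, 34 bases before): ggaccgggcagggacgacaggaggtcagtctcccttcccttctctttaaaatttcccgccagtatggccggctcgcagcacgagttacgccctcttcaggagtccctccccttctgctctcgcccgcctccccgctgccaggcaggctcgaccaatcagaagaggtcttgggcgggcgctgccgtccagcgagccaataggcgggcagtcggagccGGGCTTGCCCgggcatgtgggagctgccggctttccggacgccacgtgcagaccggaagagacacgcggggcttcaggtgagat
FAS (chr10:88991181-88991480, plus strand, 122 bases before, the only window with a half-site among the gene's 3): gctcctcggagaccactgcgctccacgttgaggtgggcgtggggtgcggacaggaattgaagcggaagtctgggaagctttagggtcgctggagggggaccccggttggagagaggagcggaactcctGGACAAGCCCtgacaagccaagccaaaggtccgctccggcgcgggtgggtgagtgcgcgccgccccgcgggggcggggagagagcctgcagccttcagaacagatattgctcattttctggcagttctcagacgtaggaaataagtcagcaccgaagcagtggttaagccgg
DDB2 (chr11:47214724-47215023, plus strand, the first begins 5 bases after the start and 1 base separates the pair, in 1 of the gene's 2 windows): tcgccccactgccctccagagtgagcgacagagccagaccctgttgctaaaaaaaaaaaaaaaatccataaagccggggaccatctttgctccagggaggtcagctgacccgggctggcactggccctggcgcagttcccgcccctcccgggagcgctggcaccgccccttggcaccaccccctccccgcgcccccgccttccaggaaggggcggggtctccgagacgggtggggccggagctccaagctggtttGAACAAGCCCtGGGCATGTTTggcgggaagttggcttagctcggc
CDKN1A (chr6:36678464-36678763, plus strand): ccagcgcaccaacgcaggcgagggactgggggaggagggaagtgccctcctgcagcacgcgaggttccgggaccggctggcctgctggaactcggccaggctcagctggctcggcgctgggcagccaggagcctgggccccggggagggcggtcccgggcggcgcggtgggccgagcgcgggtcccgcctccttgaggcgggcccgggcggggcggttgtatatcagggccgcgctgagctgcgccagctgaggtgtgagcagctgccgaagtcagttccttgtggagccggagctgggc
The CDKN1A window held no match. A pair of half-sites separated by at most 13 bases was present in 10 of 35116 windows (0.0285%), and DDB2 was the only one of the 25 genes with such a window.

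Libraries held 0.42 to 35.4 M converted reads. In the mitosis series with 15 min of 4sU, converted reads were 2.44 to 5.39% of all reads from 0 to 120 min and 5.6 to 9.05% from 4 to 8 h. Markers of retinal pigment epithelium summed to 0.0 to 3.94 CPM in the RPE-1 libraries of the mitosis series, and KRT8, KRT18, VIM and TERT together to 741 to 3380 CPM, so the line lacked the defining markers of its tissue. No library without 4sU was analysed here, so the part of converted reads that arises without label is unknown. Levels are a gene's converted reads scaled to library size (CPM) on the scale of their fit, and are comparable between libraries of a fit but not between genes of different length. Of the 31 genes, 29 passed the filter on low counts in the RPE-1 libraries with the short label. SPATA18, a mitochondrial quality control gene, and GDF15, a secreted stress cytokine, did not, with levels of 0 to 2.31 CPM and 0 to 3.31 CPM in the DMSO libraries from 0 to 120 min. The library of DMSO at 120 min, replicate 3, stood apart for several of these genes, and values without it are given where they differ.

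After release from nocodazole in DMSO, some of the p53 targets had more new RNA at 60 and 90 min than at 0 min, and most of the tested ones did at 120 min. Against 0 min, 12 of 29 tested genes were higher at 60 min, 14 at 90 min and 20 at 120 min, and 0 were lower at any of these times (edgeR's quasi-likelihood test, adjusted p under 0.05). The share of all tested genes called higher was 22.0%, 14.2% and 14.6% at these times, and the share called lower was 13.9%, 10.0% and 13.2%. The median log2 change of the 29 genes was 0.49, 0.89 and 1.12 at the 3 times, beside 0.02, 0.01 and 0.06 over all genes. Changes are relative to all converted reads of a library. Scaled to all its reads, converted or not, the median over all genes was 0.597, 0.487 and 0.415. On this scale 20, 21 and 23 of the p53 targets were higher and 0 lower. Of all 14204 genes 6416, 4999 and 3928 were then higher and 245, 481 and 868 lower. These comparisons share their 0 min libraries. In bulk libraries, more cells with a transcript and more of it per cell cannot be told apart. At 30 min, a comparison added after the data were seen, edgeR called none of the 29 genes and none of all genes. There 0 of the 29 and 498 of all genes had an unadjusted p under 0.05, and DESeq2 also called 0 of both.

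Among the members that restrain the cell cycle, CDKN1A and GADD45A had the largest changes of the 29 genes at 120 min, whereas at 60 min SERTAD1, GADD45A and BBC3 had the largest. CDKN1A encodes p21, the inhibitor of cyclin-dependent kinases, and lies at chr6:36676460-36687339 (hg38). In DMSO it stood at 43.7, 76.2 and 62.0 CPM at 0 min, and 60 min libraries held 107, 111, 210 and 168 CPM. Values then reached 256, 391, 380 and 345 CPM at 90 min and 304, 292, 489 and 448 CPM at 120 min. The 4 libraries at each of these later times lay above all 3 at 0 min. Its log2 change from 0 min was 1.32 ± 0.42 (SE) at 60 min (adjusted p = 0.0133), 2.52 ± 0.43 at 90 min (3.58e-05) and 2.66 ± 0.43 at 120 min (1.5e-05). GADD45A, a stress protein that acts in growth arrest, rose from 12.8, 11.7 and 25.0 CPM at 0 min to 68.8, 86.4, 164 and 103 at 120 min, with no overlap. Its change was 2.63 ± 0.35 at 120 min (adjusted p = 5.05e-07), and it was called already at 60 min (1.85 ± 0.34). BTG2, an antiproliferative cofactor of mRNA deadenylation, moved from 2.37, 0.0 and 4.3 CPM to 5.05, 14.5, 6.63 and 10.5 (log2 change 2.01 ± 0.63, adjusted p = 0.0162), and its call was lost without replicate 2, 3 or 4 of all groups (adjusted p = 0.202, 0.0726 and 0.0516).

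The polo-like kinases PLK3 and PLK2, which are induced by stress and growth signals, also rose. PLK3 went from 5.22, 7.82 and 5.16 CPM at 0 min to 22.7, 24.3, 61.3 and 36.3 at 120 min (log2 change 2.5 ± 0.59, adjusted p = 0.00143). PLK2 went from 153, 96.7 and 122 CPM to 327, 487, 537 and 376 (1.77 ± 0.22, adjusted p = 1.4e-07). It had been at 155, 198, 145 and 195 CPM at 60 min, where its groups still overlapped and it was not called. SESN1, a sestrin that restrains mTORC1, was called at all 3 times, with a log2 change of 1.12 ± 0.26 at 120 min. Without replicate 3 or 4 of all groups its call was lost at 60 min (adjusted p = 0.138 and 0.231) and at 90 min (0.13 and 0.216). When all reads were counted it was lost at all 3 times. CCNG1, cyclin G1, changed least among the called genes (0.53 ± 0.19), and its call was lost in every fit that left out libraries.

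The regulators of p53 itself followed different courses. MDM2 lies at chr12:68808176-68850686 (hg38). Its level was 212, 201 and 177 CPM at 0 min, and 60 min libraries held 177, 185, 181 and 177 CPM. The 90 min libraries then held 259, 391, 523 and 412 CPM, and those of 120 min 330, 597, 285 and 498 CPM. At 60 min it was within the range of 0 min (log2 change -0.12 ± 0.21, adjusted p = 0.68; 0.45 when scaled to all reads), and at 90 and 120 min all libraries lay above it (1.01 ± 0.22 and 1.11 ± 0.22, adjusted p = 0.000646 and 0.000173). PPM1D, the phosphatase WIP1 that dephosphorylates p53, showed the reverse order. It stood at 45.1, 44.9 and 36.1 CPM at 0 min, and 60 min libraries held 78.9, 103, 84.4 and 92.2 CPM. By 120 min its values were 44.8, 53.8, 34.8 and 35.7 CPM. The change was 1.1 ± 0.18 at 60 min (adjusted p = 1.75e-05), 0.34 ± 0.18 at 90 min (not called) and 0.02 ± 0.19 at 120 min. When all reads were counted, PPM1D was not called at 60 min (0.23, adjusted p = 0.415). TRIAP1, a small inhibitor of apoptosis, was called at 120 min alone among these times (0.87 ± 0.23).

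Several members act in apoptosis. Among those called higher at 120 min were BBC3 and PMAIP1, the BH3-only proteins PUMA and NOXA, and the receptors FAS, TNFRSF10B and EDA2R. PHLDA3, an inhibitor of AKT, and AEN, an apoptosis-enhancing nuclease, were also among them. BBC3 was at 1.9, 1.95 and 6.02 CPM at 0 min and at 10.8, 12.4, 10.4 and 8.04 at 60 min (log2 change 1.73 ± 0.42, adjusted p = 0.00199), and it was 1.75 ± 0.44 above 0 min at 120 min. EDA2R was at 26.6, 12.7 and 18.1 CPM at 0 min, overlapped this range at 60 min, and reached 58.7, 90.0, 34.8 and 94.9 at 120 min (1.84 ± 0.29, adjusted p = 9.18e-06). FAS likewise was called at 90 and 120 min (0.71 ± 0.2 and 1.29 ± 0.2) and not at 60 min (0.06 ± 0.2). PMAIP1 and AEN were called at all 3 times, with 1.53 ± 0.4 and 1.41 ± 0.23 at 120 min, as was TNFRSF10B with 1.26 ± 0.2. The call of PHLDA3 depended on single libraries. It was at 10.9, 29.3 and 24.1 CPM at 0 min and 41.0, 27.4, 220 and 55.1 at 120 min, and its change of 1.9 ± 0.64 (adjusted p = 0.0235) became 0.96 (0.217) without replicate 3. BAX, the pore-forming effector, and TP53I3, a quinone oxidoreductase, had changes of 0.8 ± 0.33 and 0.66 ± 0.4 and were not called.

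Other members act in DNA repair or nucleotide supply. XPC, the damage sensor of nucleotide excision repair, had a log2 change of 0.64 ± 0.2 at 120 min, and RRM2B, a subunit of ribonucleotide reductase, one of 0.66 ± 0.17, and both were called. DDB2, the partner of XPC in damage recognition, stood at 12.3, 21.5 and 12.9 CPM at 0 min and 12.0, 18.1, 8.28 and 9.96 at 120 min, with overlapping groups (-0.27 ± 0.35). POLH, the translesion polymerase eta, had a change of -0.29 ± 0.16, and its locus overlaps GTPBP2 on the opposite strand over 26.2% of its span. 

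Of the remaining genes, ABHD4, a lipid hydrolase, rose from 3.32, 4.89 and 2.58 CPM to 20.8, 8.79, 9.94 and 12.9 at 120 min (log2 change 1.9 ± 0.39, adjusted p = 0.000295). SERTAD1, a CDK4-binding coregulator, was at 2.37, 7.82 and 6.02 CPM at 0 min and 12.9, 16.5, 20.2 and 23.1 at 60 min (1.89 ± 0.54, adjusted p = 0.00681), and its call at 120 min (1.65 ± 0.57) was lost without replicate 3 of that group (1.22, adjusted p = 0.102). TP53INP1, ZMAT3 and TRIM22 were not called at any of the 3 times, with changes of 0.01, 0.12 and 0.41 at 120 min, and neither was FDXR, a mitochondrial ferredoxin reductase (0.19 ± 0.55). TP53INP1, an autophagy and stress protein, and TRIM22 lie wholly over NDUFAF6 and TRIM5 on the opposite strand, as TP53I3 does over FAM228B. Whether the counting used strand is not given in the sources used here, so these 3 levels may include reads of the partner, which had 116%, 84.4% and 138% as many reads in all as TP53INP1, TRIM22 and TP53I3. For GTPBP2 the figure was 109% of POLH. FAS and XPC overlap the well-read genes ACTA2 (67.1% of the reads of FAS) and LSM3 (41.7% of those of XPC) over 3.0% and 1.3% of their spans, and TNFRSF10B overlaps RHOBTB2 (5.4%) over 0.1%. MDM2 overlaps the carboxypeptidase gene CPM over 20.0% of its span, XPC overlaps AC093495.4 over 61.9%, and TRIAP1 lies wholly over AL021546.6. These last 3 partners had at most 2.96% of the reads of the gene they overlap.

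Without replicate 3 of DMSO at 120 min, 17 of the 20 genes were called there, the others being PHLDA3, SERTAD1 and CCNG1. Of all genes 3855 of 14125 were called in that fit, beside 3949 of 14204 with all libraries. Leaving out 1 replicate number in all groups also ended the calls at 120 min of BBC3 (number 2), XPC (1, 3 or 4), TRIAP1 (3 or 4) and RRM2B (4), besides BTG2. Over all 5 fits that left out libraries, the call at 120 min was lost in 5 for CCNG1, 4 for PHLDA3 and 3 for SERTAD1. At 60 min the count fell from 12 to 5 without replicate 4 and to 6 without replicate 2 of all groups, and CDKN1A lost its call in both (adjusted p = 0.13 and 0.0574), as did SERTAD1, PLK3, TNFRSF10B and PMAIP1. BBC3, SESN1 and XPC also lost their calls at 60 min in at least 1 fit that left out libraries. At 90 min such fits called 10 to 16 genes, against 14 with all libraries, and 2021 to 3663 of all genes, against 3438. There BTG2, FAS, SESN1, PLK3, BBC3 and PMAIP1 each lost the call in at least 1 fit. At 120 min the count fell to 13 without replicate 4, where 2485 of all 13797 genes were called. At 60 min 2976 of 13797 genes were called without replicate 4 and 3371 of 14478 without replicate 2. With all libraries 5100 of 14204 were called at 60 min.

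**Figure D1:**
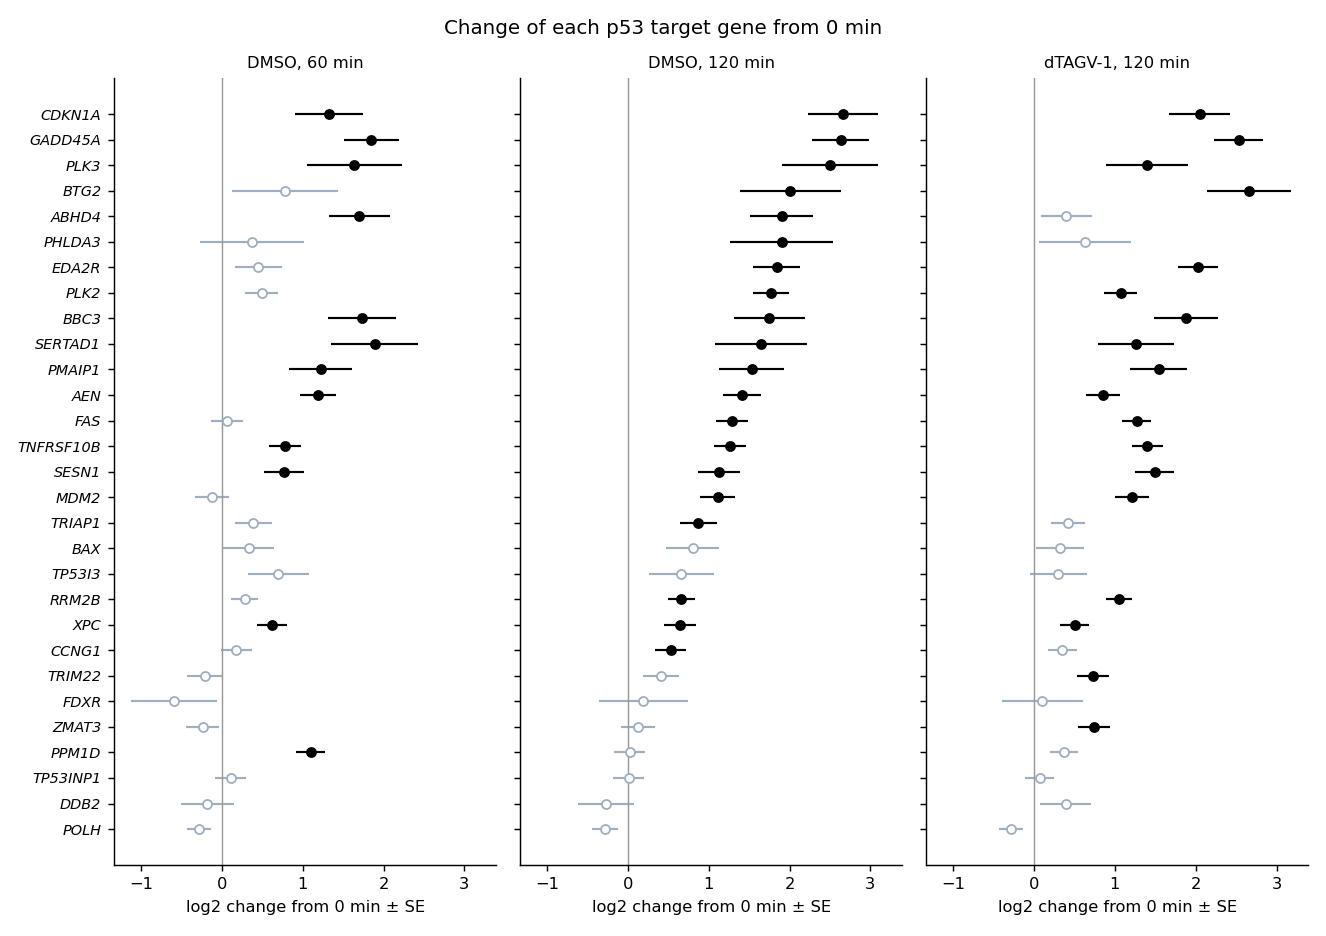
Log2 change in converted reads from 0 min, with its standard error, for the 29 tested p53 target genes in DMSO at 60 and 120 min and in dTAGV-1 at 120 min, with filled points for an adjusted p under 0.05. Genes are ordered by their change in DMSO at 120 min, where 20 points are filled, all to the right of 0, and DDB2 and POLH lie at the bottom.

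The genes also differed in how much of their RNA carried label after 120 min of 4sU. In DMSO of the mitosis series the median share of converted reads ran from 7.74% for TP53I3 to 70.7% for BTG2, with a median of 42.9% over the 31 genes. Among the 12 genes called at 60 min, shares were 26.2 to 70.2% with a median of 58.8%. Among the 9 first called at 90 or 120 min they were 13.7 to 70.7%, with a median of 33.2%, and among the 8 tested genes not called they were 7.74 to 48.6%, with a median of 20.0%. These classes were made from the release comparisons, so the shares are given as a description. Gene spans overlapped between the classes, at 3.3 to 108.4, 2.5 to 43.7 and 7.0 to 55.1 kb.

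A list of 21 tested p53 targets outside the 31 had 10 higher and 3 lower in DMSO at 120 min, with a median log2 change of 0.76. Other programmes moved at the same time. Of 11 stress genes of the ATF4 pathway, which responds to amino acid and endoplasmic reticulum stress, 10 were higher, with a median of 2.31. Of 19 immediate early genes 9 were higher and 1 lower, with a median of 1.60, and of 15 mitotic genes 11 were lower, with a median of -1.38. The part of these programmes in the rise of the p53 targets was not tested, and no library lacked p53.

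With dTAGV-1, too, most of the tested genes had more new RNA at 120 min than at 0 min. In dTAGV-1 at 120 min against 0 min, 18 of 29 genes were higher and 0 lower, beside 14.1% and 11.2% of all genes, and the median change was 0.85 beside 0.01. CDKN1A stood at 61.2, 57.6, 143 and 122 CPM at 0 min and at 350, 338 and 509 at 120 min (log2 change 2.05 ± 0.38, adjusted p = 0.000101). MDM2 went from 225, 236, 237 and 175 CPM to 392, 657 and 478 (1.21 ± 0.21, adjusted p = 2.85e-05). Neither gene's groups overlapped. The largest changes were those of BTG2 (2.66 ± 0.52), GADD45A (2.53 ± 0.3), EDA2R (2.03 ± 0.25), BBC3 (1.88 ± 0.4) and PMAIP1 (1.54 ± 0.35). ZMAT3 (0.74 ± 0.2, but -0.22 when all reads were counted) and TRIM22 (0.73 ± 0.2) were called in this arm, and PHLDA3, AEN and ABHD4 had changes of 0.63 ± 0.57, 0.85 ± 0.21 and 0.4 ± 0.32, of which AEN was called. Calls in this arm that were lost without 1 replicate number were those of PMAIP1, TRIM22, ZMAT3, AEN, PLK3, SERTAD1 and XPC.

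The difference between the arms in this change was tested directly. None of the 29 genes was called, in either direction, with edgeR or with DESeq2, 3 had an unadjusted p under 0.05, and the smallest adjusted p was 0.527. Of all 14204 genes 0.0% were called higher and 0.0493% lower, and 1122 had an unadjusted p under 0.05. ABHD4 had the smallest p, with a difference of -1.5 ± 0.51, followed by PLK2 with -0.7 ± 0.29 (adjusted p = 0.581). For CDKN1A the difference was -0.61 ± 0.56 and for MDM2 0.09 ± 0.3. The standard errors of these differences had a median of 0.35 and reached 0.88.

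From 4 to 8 h after release some of the genes were lower than at 120 min and others higher. Against DMSO at 120 min, 3 of 29 were higher and 9 lower, beside 23.3% and 24.9% of all genes, and the median log2 change was -0.23 beside -0.06. CDKN1A was at 167 and 130 CPM at 4 h, then 154 and 122 CPM at 6 h and lastly 147 and 120 CPM at 8 h, below all 4 libraries at 120 min and above all 3 at 0 min. Its change from 120 min was -1.44 ± 0.29 (adjusted p = 5.52e-05). SERTAD1 fell to 3.52 to 7.55 CPM (-1.61 ± 0.38, adjusted p = 0.000501), and PMAIP1 fell from 39.1 to 96.1 CPM at 120 min to 28.6 and 22.5 at 8 h (-0.96 ± 0.27, adjusted p = 0.0033). CCNG1 (-0.84 ± 0.15), TRIAP1 (-0.74 ± 0.16), AEN (-0.69 ± 0.17), FAS (-0.57 ± 0.14), TP53INP1 (-0.54 ± 0.15) and RRM2B (-0.46 ± 0.14) were the other genes called lower. Without replicate number 1 or 2 the calls of FAS, RRM2B, TP53INP1 and PMAIP1 were lost in at least 1 of these fits. MDM2 was at 412 and 454 CPM at 4 h and 319 and 336 at 8 h, within the range of 120 min (-0.23 ± 0.17, adjusted p = 0.262).

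The genes called higher were BBC3, XPC and PPM1D. BBC3 rose from 7.58, 10.9, 13.3 and 12.3 CPM at 120 min to 17.2 to 29.0 from 4 to 8 h, with no overlap (1.04 ± 0.25, adjusted p = 0.000709). XPC was at 119 to 137 CPM in the 6 later libraries and 63.0 to 85.6 at 120 min (0.66 ± 0.14). PPM1D was at 55.8 to 66.9 CPM (0.5 ± 0.14). EDA2R was highest at 4 h, at 120 and 130 CPM, and its average change was not called (0.4 ± 0.19). These directions are relative to all converted reads, whose share of all reads grew over this time. Scaled to all reads of the library instead, 13 of the 29 genes were higher and 0 lower, beside 8434 and 805 of all 15857 genes. The median over all genes moved to 0.744. MDM2 changed by 0.56 (adjusted p = 0.0305) and CDKN1A by -0.66 (adjusted p = 0.0986) in edgeR's test. AEN, FAS, RRM2B, TP53INP1 and TRIAP1 changed sign (0.1, 0.22, 0.33, 0.29 and 0.04). With all reads counted, PPM1D changed by -0.12.

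**Figure D2:**
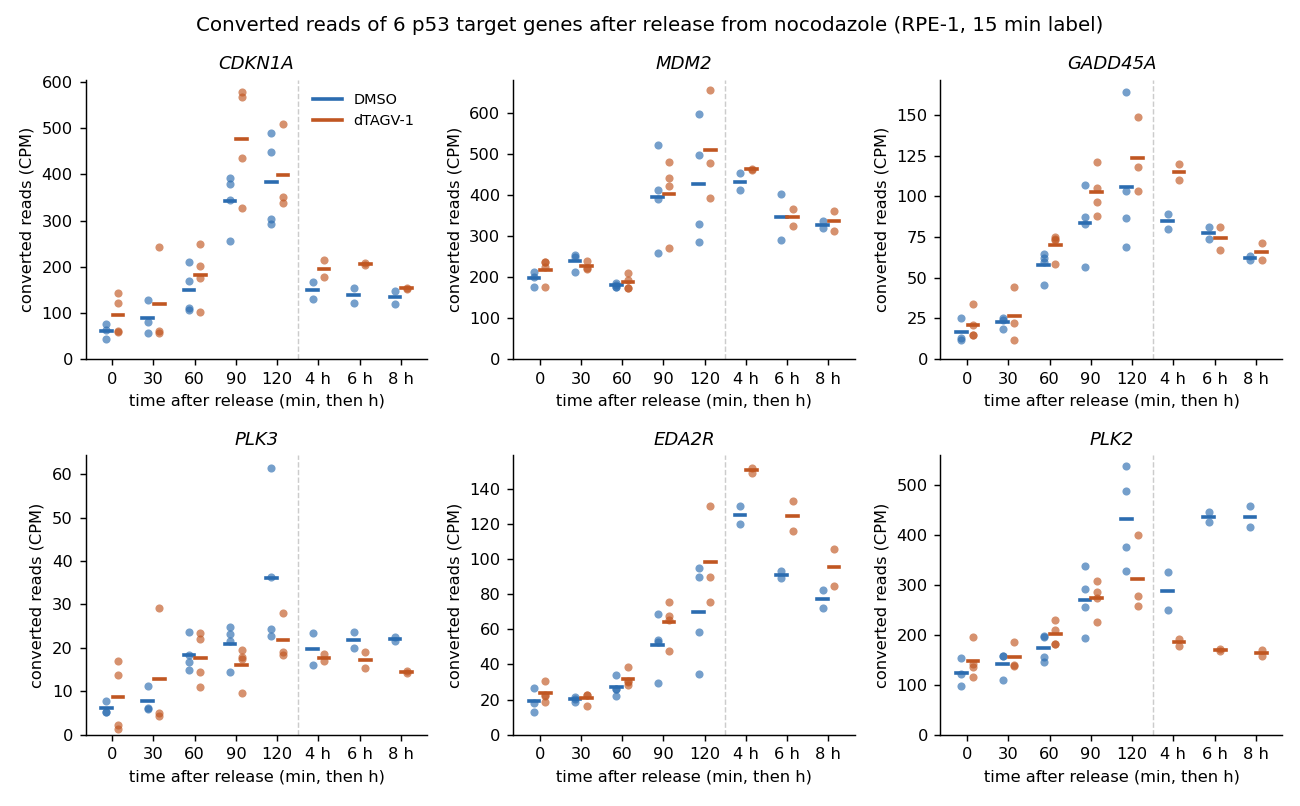
Converted reads (CPM) for 6 p53 target genes in the mitosis series with 15 min of 4sU, from 0 min to 8 h after release. Points are libraries, short lines are group means, blue is DMSO and orange is dTAGV-1, and the dashed line marks the change from minutes to hours. In DMSO MDM2 is first called above 0 min at 90 min, CDKN1A peaks at 90 to 120 min, and PLK2 separates the arms from 4 h on.

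The arms with dTAGV-1 and DMSO were compared over matched times. From 30 to 120 min of the mitosis series, none of the 29 genes was called by edgeR or DESeq2. Of all genes edgeR called 0.514% higher and 0.753% lower. An unadjusted p under 0.05 was found for 2 of the 29 and for 1488 of all 14204 genes. CDKN1A had a log2 difference of 0.32 ± 0.19 (adjusted p = 0.563) and MDM2 one of 0.07 ± 0.1. The release series gave 0 calls by both tools as well, beside 0.467% and 1.81% of all genes with edgeR. In that series 3 of the 29 and 1353 of all 13925 genes had an unadjusted p under 0.05. There CDKN1A had a difference of 0.37 ± 0.22 (adjusted p = 0.678) and MDM2 one of -0.03 ± 0.09. NIPBL, whose protein and not its RNA is the target of the degron, had a difference of 0.17 ± 0.11 between the arms from 30 to 120 min of the mitosis series (not called).

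With 120 min of 4sU all 31 genes were tested. In the mitosis series 0 were called by edgeR, 8 had an unadjusted p under 0.05, and DESeq2 called 2, CDKN1A and BTG2, both higher. Of all 16570 genes edgeR called 0.41% higher and 2.05% lower, and 2199 had an unadjusted p under 0.05. DESeq2 called 144 of them higher and 518 lower. CDKN1A was at 287, 344 and 330 CPM in DMSO and 480, 499 and 915 in dTAGV-1, with no overlap (0.98 ± 0.25, adjusted p = 0.0613). BTG2 was at 15.3, 21.0 and 16.2 CPM and 31.2, 28.2 and 35.2, also without overlap (0.84 ± 0.22, adjusted p = 0.0585). In the release series 0 were called by either tool, beside 0.0724% and 0.646% of all genes with edgeR. An unadjusted p under 0.05 was found for 2 of the 31 and for 882 of all 16570 genes. CDKN1A was at 303, 255 and 202 CPM in DMSO and 321, 375 and 540 in dTAGV-1 (0.7 ± 0.25, adjusted p = 0.516). MDM2 differed by -0.04 ± 0.23 and 0.12 ± 0.23 in these series.

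From 4 to 8 h, 9 of 29 genes were higher with dTAGV-1 and 2 lower, beside 9.07% and 10.7% of all genes, and the median was 0.15 beside 0.01. The differences upward were small. SERTAD1 had the largest, 0.75 ± 0.21 (adjusted p = 0.0171), and its levels were 7.55 and 4.53 CPM in DMSO against 11.5 and 9.27 at 4 h, 3.52 and 4.13 against 8.96 and 9.67 at 6 h, and 7.06 and 3.97 against 5.2 and 8.05 at 8 h. TP53INP1 (0.55 ± 0.09, adjusted p = 0.000332) was at 59.6 and 57.8 CPM in DMSO and 102 and 83.8 in dTAGV-1 at 6 h. TP53I3 (0.48 ± 0.14), RRM2B (0.4 ± 0.09), CDKN1A (0.37 ± 0.09, adjusted p = 0.00799) and EDA2R (0.32 ± 0.08) followed. With dTAGV-1 CDKN1A was at 178 and 214 CPM at 4 h, then 203 and 208 CPM at 6 h and lastly 152 and 154 CPM at 8 h, above both DMSO libraries of each time. ZMAT3, PPM1D and TNFRSF10B were higher by 0.23 to 0.27. MDM2 had a difference of 0.03 ± 0.08 (adjusted p = 0.851), and its arms overlapped at 6 and 8 h. NIPBL RNA was 0.36 ± 0.07 higher (adjusted p = 0.00205).

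The small differences upward depended on the reads counted and on single libraries. With all reads, 3 of the 11 genes were called, beside 3251 of all 23165 genes. None of CDKN1A, SERTAD1, TP53I3, RRM2B, EDA2R, ZMAT3, PPM1D and TNFRSF10B kept its call. The count was 6 without replicate 1 of dTAGV-1 at 4 h or at 6 h. These fits called 2283 and 2356 of all genes, beside 2882 with all libraries. It was 7 without DMSO at 6 h replicate 1, DMSO at 8 h replicate 2 or dTAGV-1 at 8 h replicate 1. There 2642, 2366 and 2418 of all genes were called.

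PLK2 had the largest difference of the 29 genes, and it was downward. It lies on chr5:58453982-58460260 (hg38, minus strand). At 4 h it was at 250 and 325 CPM in DMSO and 178 and 192 in dTAGV-1. The 6 h values were 446 and 425 CPM against 171 and 168, and those of 8 h 416 and 457 CPM against 157 and 169. No library of one arm overlapped the other at any of these times. The difference was -1.15 ± 0.08 over the 3 times (adjusted p = 8.2e-09), -0.65 ± 0.13 at 4 h, -1.36 ± 0.14 at 6 h and -1.44 ± 0.13 at 8 h. Its range over all alternatives tried was -1.21 to -1.07. From 30 to 120 min the difference had been -0.03 ± 0.1, with 327, 487, 537 and 376 CPM in DMSO and 277, 400 and 257 in dTAGV-1 at 120 min (-0.46 ± 0.2, adjusted p = 0.337). The later difference minus the earlier one was -1.11 ± 0.17 (adjusted p = 3.04e-05), a test chosen after the values were seen. Time and set of libraries cannot be told apart in that test. In the release series it was 0.0 ± 0.09 from 30 to 120 min. PLK3, which lies on another chromosome, was also lower (-0.39 ± 0.13, adjusted p = 0.0424), but this call was lost with DESeq2 (adjusted p = 0.12), without the filter on low counts (0.0502), with library sizes from all reads (0.0653) and in 9 of 12 fits that left out 1 library. Its arms overlapped at 4 h and not at 6 or 8 h, where DMSO was at 20.0 to 23.7 CPM and dTAGV-1 at 14.3 to 19.0.

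**Figure D3:**
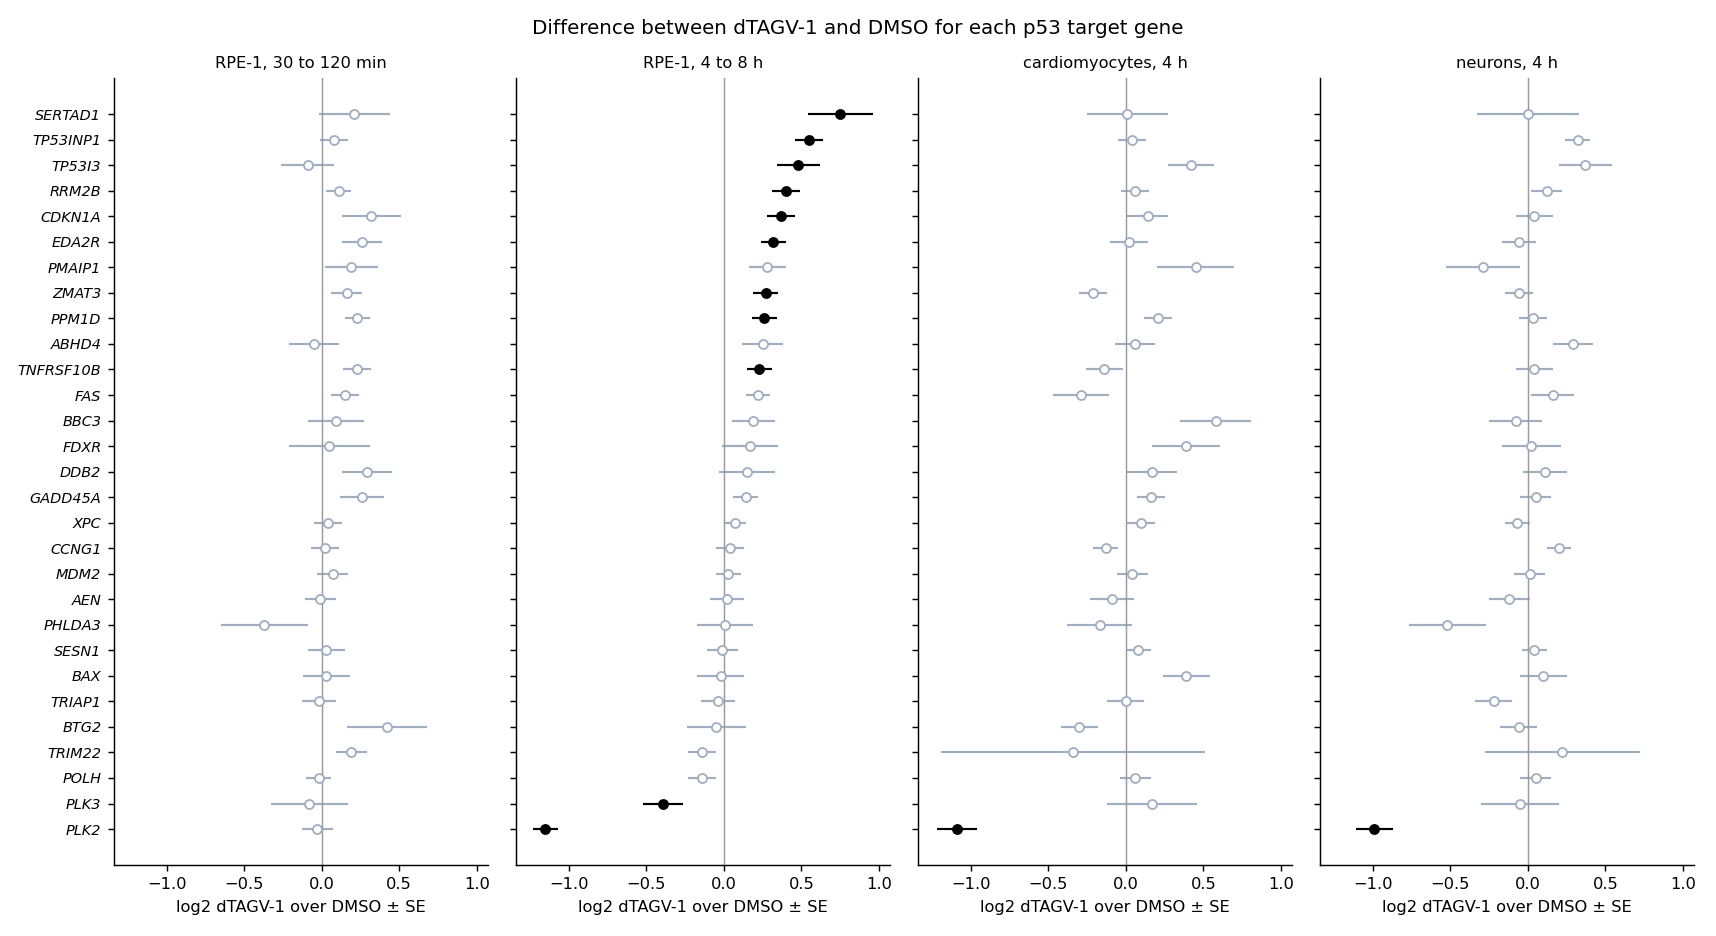
Log2 ratio of dTAGV-1 to DMSO, with its standard error, for the 29 p53 target genes tested in RPE-1 cells of the mitosis series at 30 to 120 min and at 4 to 8 h, and for the same genes in cardiomyocytes and neurons after 4 h of drug. Filled points have an adjusted p under 0.05: PLK2 lies near -1 in 3 of the 4 panels and near 0 from 30 to 120 min.

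In WTC11-derived cells, which the labels call post-mitotic, the drug changed 1 of the 31 genes in each cell type, and in both it was PLK2. Sums over 8 cardiomyocyte markers were 4120 to 4460 CPM in DMSO cardiomyocytes and 4430 to 4700 in dTAGV-1, and those over 8 neuronal markers 1770 to 1860 CPM in DMSO neurons and 1820 to 1880 in dTAGV-1. Sums over markers of the other cell type were lower with the drug. Neuronal markers summed to 110 to 143 CPM in DMSO cardiomyocytes and 57.7 to 62.1 in dTAGV-1. Cardiomyocyte markers summed to 63.1 to 65.8 CPM in DMSO neurons and 28.1 to 35.9 in dTAGV-1. In each arm, 4 of the 8 neuronal markers reached 1 CPM in all cardiomyocyte libraries, and 2 of the 8 cardiomyocyte markers did in all neuron libraries. The neuronal list also summed to 164 to 179 CPM in RPE-1 in DMSO at 4 h, with 1 of 8 at 1 CPM in all libraries. The part of these markers in the results on PLK2 was not tested. In cardiomyocytes 0 genes were higher and 1 lower, beside 1.18% and 3.65% of all genes. PLK2 was at 129 and 120 CPM in DMSO and 66.9 and 50.1 in dTAGV-1, with no overlap (-1.09 ± 0.13, adjusted p = 0.000496). In neurons 0 were higher and 1 lower, beside 0.574% and 1.66%, and PLK2 was at 270 and 309 CPM in DMSO and 143 and 148 in dTAGV-1 (-0.99 ± 0.12, adjusted p = 0.000953). The effect in neurons minus that in cardiomyocytes was 0.1 ± 0.17 (adjusted p = 0.949). CDKN1A differed by 0.14 ± 0.13 and 0.04 ± 0.12 and MDM2 by 0.04 ± 0.1 and 0.01 ± 0.1 in the 2 cell types, none called. TP53INP1 in neurons, at 184 and 191 CPM in DMSO and 235 and 233 in dTAGV-1, had a difference of 0.32 ± 0.08 (adjusted p = 0.088), and was called when either dTAGV-1 cardiomyocyte library was left out of the shared fit.

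RAB3C, which neighbours PLK2 on chromosome 5 and was looked at after these values were seen, was also lower with dTAGV-1 in cardiomyocytes (-1.33 ± 0.21, adjusted p = 0.00368) and neurons (-0.65 ± 0.15, 0.0486). It was at 20.1 and 13.7 CPM in DMSO cardiomyocytes and 6.12 and 7.39 in dTAGV-1, and at 89.4 and 103 in DMSO neurons and 64.3 and 58.4 in dTAGV-1. In DMSO RAB3C was 2.49 ± 0.16 higher in neurons than in cardiomyocytes, where the sum of neuronal markers was also lower with the drug. The part of neuronal cells in the RAB3C result of cardiomyocytes was not tested. RAB3C did not pass the filter in RPE-1 from 4 to 8 h. PDE4D, which lies beyond RAB3C and was looked at in the same way, was higher in RPE-1 from 4 to 8 h (0.48 ± 0.09, adjusted p = 0.000913) and was not called in cardiomyocytes (-0.3 ± 0.09, 0.0845) or neurons (-0.06 ± 0.08, 0.878). Markers of fibroblasts and smooth muscle summed to 360 and 381 CPM in DMSO cardiomyocytes and 178 and 221 in dTAGV-1. Most of each sum was ACTA2, at 254 and 285 CPM in DMSO and 158 and 108 in dTAGV-1 (-1.02 ± 0.15, called lower). The part of these markers in the cardiomyocyte result was not tested.

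Most of the p53 targets were higher in neurons than in cardiomyocytes. In DMSO, 24 of 31 genes were higher in neurons than in cardiomyocytes and 3 lower, beside 26.9% and 26.8% of all genes, with a median log2 difference of 0.85 beside 0.01. BBC3 was at 2.86 and 3.37 CPM in cardiomyocytes and 16.8 and 15.7 in neurons (2.38 ± 0.2, adjusted p = 1.2e-06). DDB2 (1.78 ± 0.15), EDA2R (1.56 ± 0.12), FAS (1.53 ± 0.15) and FDXR (1.4 ± 0.2) followed, and TRIM22 differed by 2.02 ± 0.62 at 1.06 and 1.2 against 6.28 and 3.05 CPM. CDKN1A was at 39.2 and 49.3 CPM in cardiomyocytes and 79.6 and 79.1 in neurons (0.85 ± 0.12, adjusted p = 0.000142), and MDM2 at 230 and 252 and at 312 and 286 (0.31 ± 0.1, adjusted p = 0.0169). GADD45A (-0.66 ± 0.09), TP53I3 (-0.49 ± 0.16) and SERTAD1 (-1.15 ± 0.3) were lower in neurons. TP53I3 lost this call with DESeq2 (adjusted p = 0.106), with all reads (0.195) and without replicate 1 of DMSO cardiomyocytes or of DMSO neurons, and SERTAD1 lost it without replicate 2 of DMSO cardiomyocytes or replicate 1 of DMSO neurons. The calls of MDM2 and TRIM22 were each lost in some of these fits too. SPATA18, near 0 in RPE-1, was at 14.9 and 25.5 CPM in cardiomyocytes and 48.2 and 41.3 in neurons (1.15 ± 0.2, adjusted p = 0.000501).

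Of 15 mitotic genes 9 were higher in neurons and 0 lower. Markers of pluripotent cells summed to 169 and 180 CPM in DMSO neurons and 108 and 120 in DMSO cardiomyocytes. Of these 4 markers, 2 reached 1 CPM in all DMSO neuron libraries, where NANOG was at 0. In DMSO cardiomyocytes 1 of the 4 did. Whether pluripotent cells were present was not tested. The part of dividing cells in the difference of the p53 targets was not tested. Each cell type had 2 libraries an arm, and culture and cell type cannot be told apart. When all reads were counted, CDKN1A differed by 0.21 and was not called (adjusted p = 0.186). With converted reads scaled to all reads, 19 genes were higher in neurons and 6 lower, beside 3454 and 7243 of all 18643 genes. The median over all genes was -0.254, and MDM2 differed by 0.05 (adjusted p = 0.714, edgeR).

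**Figure D4:**
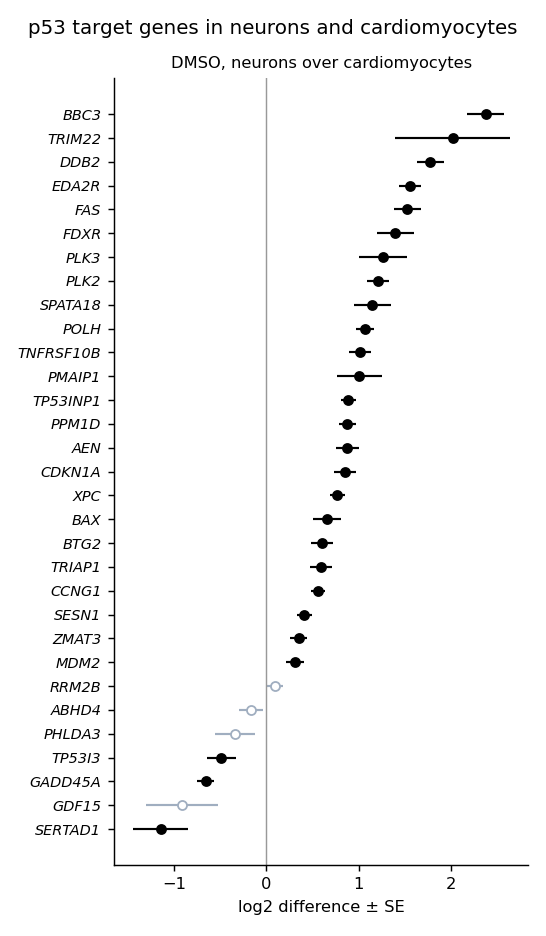
Log2 difference in converted reads between neurons and cardiomyocytes in DMSO, with its standard error, for the 31 p53 target genes, with filled points for an adjusted p under 0.05. The 24 genes called higher in neurons run from MDM2 at 0.31 to BBC3 at 2.38, and SERTAD1, GADD45A and TP53I3 lie to the left of 0 as filled points.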

How the data were processed

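SLAM-seq libraries were given as one table per sample, with converted and all reads for each gene. Per the submitters' processing notes the tools were HISAT, Picard and HTSeq on hg38, with versions, read filters and strand not given in the sources used here. The deposited values are raw counts, and no normalization by the authors was applied to them, judging from the values. Genes of the Y chromosome and of the X-inactivation centre were left out (283 of 49186 named genes). Replicates were compared first: over 94 pairs of libraries of the same group the lowest chi-square per degree of freedom was 1.73, so none of these pairs was a duplicate. Libraries of different groups were not compared in this way.

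Converted-read counts were tested with edgeR 4.0.16 (quasi-likelihood, two-sided, TMM scaling, filterByExpr at its minimum count, 10, and minimum total count, 15) in R 4.3.3, with Benjamini-Hochberg adjustment over all genes tested and a threshold of 0.05. Separate fits were made for the mitosis series at 0 to 120 min, at 0 min to 8 h and at 4 to 8 h, for the release series, for RPE-1 with 120 min of 4sU, and for WTC11 cells. Fits were tested on simulated data. The alternatives were DESeq2 1.42.0, its size factors, no filter on low counts, all reads, library sizes from all reads, the replicate number as a block, and leaving out replicates. Depth was 0.42 to 35.4 M converted reads a library, which limits precision for low genes. Intervals cover only the spread between libraries.

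Replicate numbers paired the samples, by correlated deviations from group means (every r over 0.1 with 3 pairs), in the mitosis series with the long label (0.154 to 0.706) and in dTAGV-1 at 120 against 0 min (0.345 to 0.741). Members and gene lists were chosen with earlier results of these data known. Genes were named by rule: CDKN1A and MDM2 in every comparison, NIPBL, and the up to 6 called members with the largest change in each direction. Others named beside them serve to account for all 31. Single times, the time difference for PLK2, RAB3C and PDE4D were added after the data were seen. Promoter windows came from RefSeq. One gene outside the 31 is not reported here.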

Additional observations from a re-analysis of the deposited data

Results flagged for a closer look

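In groups of 4 libraries, 144 sets of values were examined for a library far from the other 3, and 13 had one, where chance gives about 1 in 20 groups, or 7.2. At 120 min in DMSO, replicate 3 was at 220.0 CPM for PHLDA3 against 27.4 to 55.1 in the others, and at 63.0 CPM for XPC against 82.2 to 85.6. In DMSO at 60 min, replicate 3 was at 95.3 CPM for RRM2B (others 109 to 112) and 66.6 for XPC (others 80.1 to 82.7). In DMSO at 90 min, replicate 1 was at 3.08 CPM for BTG2 (others 9.84 to 10.8), and replicate 4 at 39.6 for TRIAP1 (others 24.8 to 26.6).

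In dTAGV-1, FAS was at 33.3 CPM in replicate 4 at 0 min (others 51.4 to 53.4) and at 58.5 in replicate 1 at 90 min (others 74.0 to 76.9). At 60 min replicate 1 was at 58.7 CPM for GADD45A (others 73.1 to 75.0) and 97.2 for AEN (others 124 to 129). At 90 min replicate 2 was at 102 CPM for RRM2B (others 125 to 129) and 76.1 for XPC (others 56.9 to 57.8), and replicate 1 was at 6.43 for FDXR (others 4.25 to 4.49).

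The effect of dTAGV-1 on PLK2 differed between times after release: the log2 difference between the arms was lower at 4 to 8 h than at 30 to 120 min by -1.11 (adjusted p = 3.04e-05, edgeR), and none of the other 28 tested p53 targets was called in this test. Time and set of libraries cannot be told apart in it.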

How the results depend on the processing

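PLK2 stayed called, with its direction, under every setting that gave it a value: -1.21 to -1.07 in RPE-1 from 4 to 8 h, -1.32 to -0.9 in cardiomyocytes and -1.12 to -0.89 in neurons. Of the counts of called p53 targets, 73 stayed within 1.5 times under settings that kept all libraries and 12 did not. The 73 include counts that were 0 or 1 both before and after, so they say little on larger counts. With all reads counted, 7 genes were called in DMSO at 60 min and 11 in dTAGV-1 at 120 min. At 4 to 8 h 6 were called against 120 min and 3 for the drug. Of all genes 3786 and 4492 of 27255, 5952 of 29508 and 3251 of 23165 were called in these comparisons. With library sizes from all reads, 20 were called at 60 min and 4 for the drug at 4 to 8 h. Of all genes 6661 of 14204 and 2044 of 14569 were called there. Under this scaling the median over all genes was 0.597 at 60 min and 0.744 at 4 to 8 h against 120 min, beside 0.02 and -0.06. Without the filter on low counts the drug comparisons called 1 gene at 30 to 120 min and 1 in the release series. They called 4 with the long label and 1 with the long label of the release series. CDKN1A was among them in each. Of all genes 361 of 36264, 315 of 33693, 791 of 33961 and 294 of 33961 were called in these comparisons. DESeq2 called 2 with the long label, beside 662 of all 16570 genes. Where the cause is not stated it was not tested.

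Leaving out libraries gave 5 to 12 called genes at 60 min (5 without replicate 4 and 6 without replicate 2). It gave 10 to 16 at 90 min and 13 to 19 at 120 min (13 without replicate 4). Of all genes these fits called 2976 to 5546, 2021 to 3663 and 2485 to 3855. With all libraries 5100, 3438 and 3949 of all genes were called. For the drug at 4 to 8 h it gave 6 to 11, with 6 without dTAGV-1 replicate 1 of 4 h or 6 h, and 7 without DMSO replicate 1 of 6 h, DMSO replicate 2 of 8 h or dTAGV-1 replicate 1 of 8 h. Of all genes these fits called 2264 to 2996 for the drug at 4 to 8 h, beside 2882 with all libraries. In neurons leaving out libraries gave 1 to 2, with 2 (PLK2 and TP53INP1) without either dTAGV-1 cardiomyocyte library. Those fits called 632 and 635 of all genes in neurons, beside 417 with all libraries.

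The replicate block gave 14 called genes in DMSO at 60 min, 18 at 90 min and 21 at 120 min. Of all 14204 genes it called 5785, 3989 and 4505, beside 5100, 3438 and 3949 without the block. It gave 18 in dTAGV-1 at 120 min (4197 of all genes) and 13 at 4 to 8 h against 120 min (7841). For the drug at 4 to 8 h it gave 12 (3222 of all genes), and between the cell types 27 (9666). It gave 0 for the difference between arms, the release series and both long labels. For the drug at 30 to 120 min it gave 1, TNFRSF10B, beside 336 of all genes. In both WTC11 cell types it gave 1, beside 630 of all genes in cardiomyocytes and 290 in neurons. The crossed pairing in cardiomyocytes, added because same-numbered libraries correlated at -0.3, also gave 1.

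Signs that changed were mostly those of MDM2 where it was near 0. With all reads MDM2 was at -0.05 for the difference between arms, -0.0 for the drug at 4 to 8 h, -0.02 with the long label of the release series, -0.02 in cardiomyocytes and -0.0 in neurons, and CDKN1A at -0.01 in cardiomyocytes. XPC and ZMAT3 were at -0.1 and -0.22 in dTAGV-1 at 120 min, and at 4 to 8 h against 120 min PPM1D was at -0.12 and TRIAP1 at 0.03. With library sizes from all reads MDM2 was at 0.45 at 60 min, 0.56 at 4 to 8 h against 120 min, -0.01 for the drug at 4 to 8 h, 0.1 in the release series, 0.05 with the long label and -0.12 in neurons, where CDKN1A was at -0.08. At 4 to 8 h against 120 min, TRIAP1, AEN, FAS, RRM2B and TP53INP1 were at 0.04, 0.1, 0.22, 0.33 and 0.29. Without the filter MDM2 was at -0.01 in cardiomyocytes and -0.0 in neurons. Leaving out libraries, MDM2 ranged from -0.06 to 0.2 for the difference between arms, -0.05 to 0.1 for the drug at 4 to 8 h, -0.24 to 0.1 with the long label, -0.06 to 0.14 in cardiomyocytes and -0.07 to 0.07 in neurons, and CDKN1A from -0.03 to 0.31 in cardiomyocytes.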
